A study of Mus musculus with 27 samples.

Results

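The ischemic cortex of mice was followed late on the first day after a stroke, by setting the miRNA counts at 24 h of recovery against those at 12 h. Of the 27 small RNA libraries in the series, 6 make up this step: 3 from the ipsilateral cortex at 24 h and 3 from the ipsilateral cortex at 12 h, chosen by their labels and described over every miRNA entry of the counts table. All animals were wild-type C57BL6 mice of 7 to 8 weeks. In both groups a suture had blocked the right middle cerebral artery for 35 min (MCAO, a model of transient stroke), after which blood flow was restored, and cortex was dissected from the occluded hemisphere 24 or 12 h later. The series also holds the contralateral cortex at the same times, both hemispheres at 3 and 6 h, and sham cortex, where arteries were exposed and no filament was inserted. Each group has 3 libraries, and each replicate number stands for animals of a distinct day of surgery, so the replicate numbers are called surgery days 1, 2 and 3 below. How many animals went into a library, their sex and whether 1 number links tissue of the same animal are not known from the sources used here. Whole cortex was taken, so infarct core and spared tissue are mixed, and in such bulk RNA fewer cells of a type and less RNA per cell cannot be told apart.

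miRNAs are short RNAs cut from hairpin precursors by Drosha and Dicer and loaded into Argonaute, where the seed (bases 2 to 8) pairs with sites in target mRNAs and lowers their translation and stability. Mature miRNAs are in general long-lived, and the cortex holds a few very abundant ones, among them the let-7 family, which accumulates as cells differentiate, and the neuron-enriched miR-9, miR-124 and miR-128. After a stroke the cortex passes through excitotoxic death, hypoxic stress, inflammation and entry of blood leukocytes, for each of which marker miRNAs are known.

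Mature sequences were matched by name for 1290 of the 1470 entries tested (87.8%) and come from RefSeq on build GRCm38.p6, with the seed in capitals. The members of the let-7 group and of the miR-30 group printed first share a seed within each group. In the scaled levels used below they were lower in value at 24 h on every surgery day.
let-7a-5p: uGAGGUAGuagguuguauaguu
let-7d-5p: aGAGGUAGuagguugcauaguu
let-7e-5p: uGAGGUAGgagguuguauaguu
let-7f-5p: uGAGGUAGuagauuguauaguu
let-7g-5p: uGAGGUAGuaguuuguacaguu
let-7i-5p: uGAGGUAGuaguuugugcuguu
miR-98-5p: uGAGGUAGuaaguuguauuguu
miR-30a-5p: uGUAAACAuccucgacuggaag
miR-30e-5p: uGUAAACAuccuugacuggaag
The listed loci of let-7a-5p, let-7d-5p and 1 of the 2 of let-7f-5p lie close together on the minus strand of chr13, at chr13:48538239-48538260, chr13:48536078-48536099 and chr13:48537889-48537910, over exons of the noncoding gene 6720427I07Rik. The other let-7f-5p locus (chrX:151912353-151912374) and miR-98-5p (chrX:151913229-151913250) are intronic in Huwe1. The locus of let-7e-5p (chr17:17830366-17830387) is intronic in Spaca6, and that of miR-30e-5p (chr4:120772660-120772681) is intronic in Nfyc. Single bases separate many of these sequences, so reads can be shared between them and the value of each member is uncertain to that extent.

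The next 3 had the smallest p on the higher side of the step, and all 3 were higher in value at 24 h on each surgery day.
miR-7652-3p: uCUGGCUUuccuguggcuucu
miR-7037-5p: aAGGUGGCcacaggagaucauggu
miR-3470b: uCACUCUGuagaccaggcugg
miR-7652-3p (chr11:55501261-55501281, plus strand) lies in an exon of G3bp1, which encodes a stress granule protein, and miR-7037-5p (chr5:139767915-139767938, minus strand) in an exon of Ints1, a subunit of the Integrator complex. The letters of miR-3470b (chr16:44013885-44013905) also occur in annotated transcripts of 546 other genes, so counts of this entry need not come from its own locus.

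The last group shows the pattern that separated the surgery days, with a much higher level at 24 h on days 1 and 2 and a lower level at 24 h on day 3.
miR-701-5p: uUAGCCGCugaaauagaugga
miR-6240: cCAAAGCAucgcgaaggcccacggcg
miR-718: cUUCCGCCcggccgggugucg
miR-2861: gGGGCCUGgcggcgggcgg
miR-5131: cGGCGCCCcacggagccccgagc
miR-8109: gCGCCGCGugccggccgcggg
No seed is shared among these 6. Except for miR-701-5p, which is intronic in Ttc28 (chr5:111004170-111004190), they are rich in G and C, from 69.23% in miR-6240 to 95.24% in miR-8109. miR-718, miR-2861 and miR-5131 lie over exons of Irak1, Cdk9 and Ddhd1 on the same strand.

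Depth was similar between the groups, with 1022199, 1223580 and 1039899 counts in the 24 h libraries of surgery days 1, 2 and 3 and 856591, 1206079 and 1048464 in the 12 h libraries. Levels are given in CPM, counts per 1000000 of the library total corrected by the TMM factor, which sets libraries on a common scale from the entries that differ least. The factors were 1.43, 1.18 and 1.25 at 24 h and 1.14, 0.68 and 1.08 at 12 h, so the scale itself differs between the times. The neuron-enriched miRNAs that define the tissue were abundant in all 6 libraries, with miR-124-3p between 3200 and 6031 CPM at 24 h and between 3405 and 8346 CPM at 12 h. In a principal component analysis of the 6 libraries the first component held 61.8% of the variance and ran from the 24 h library of day 1 (29.5) to the 12 h library of day 2 (-35.4). On that component the 12 h library of day 3 (10.6) stood above the 24 h libraries of day 2 (8.47) and of day 3 (-1.36), so the libraries of day 3 did not separate by time in the way those of the other days did.

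The step was tested by edgeR's quasi-likelihood test with the surgery day as a block, with Benjamini-Hochberg adjustment across the 1470 entries. No entry passed an adjusted p of 0.05 in either direction (0% called higher and 0% called lower). The smallest adjusted p was 0.0571, shared by 15 entries, and 123 entries were under 0.1, of which 49 were higher and 74 lower at 24 h. At an unadjusted p under 0.05 there were 374 entries, 207 higher (14.1%) and 167 lower (11.4%). DESeq2 on the same entries called 41 higher (2.79%) and 159 lower (10.8%) and gave no adjusted p for 599. In the contralateral cortex the same step gave 0 calls (0% in each direction) by edgeR and by DESeq2, with 37 entries higher (2.52%) and 22 lower (1.5%) at an unadjusted p under 0.05 and a smallest adjusted p of 0.996. The difference between the 2 steps, ipsilateral minus contralateral, also gave 0 calls (0% in each direction) by both tools, with 61 entries above 0 (4.15%) and 38 below 0 (2.59%) at an unadjusted p under 0.05 and a smallest adjusted p of 0.66. The step in the occluded hemisphere was therefore not shown to differ from that in the opposite one.

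The 2 sides of the step differed in abundance. Among the 78 entries with a mean over 1000 CPM the median log2 fold change was -0.54, with 54 lower and 5 higher at an unadjusted p under 0.05, and only 10 were above 0. The 238 entries between 100 and 1000 CPM had a median of -0.36, with 80 lower and 34 higher. For the 680 entries between 10 and 100 CPM the median was 0.25, and for the 474 entries under 10 CPM it was 0.39, with 80.2% of them above 0. Over all 1470 the median was 0.23. These medians depend on the scale: with library totals in place of TMM factors the median of all entries was 0.65 and that of the 316 entries of at least 100 CPM was 0.06 in place of -0.40, so the sign for abundant miRNAs as a class depends on the scale (-0.57 with DESeq2 size factors). On the scale of totals edgeR called 74 entries higher (5.03%) and 0 lower. All 1842 entries of the deposited table have at least 1 count in the 24 h libraries of days 2 and 3, while 35, 87 and 39 entries are at 0 in the 12 h libraries of days 1, 2 and 3. That property of the table moves with the values of low entries, and its part in their positive median was not tested.

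**Figure D1:**
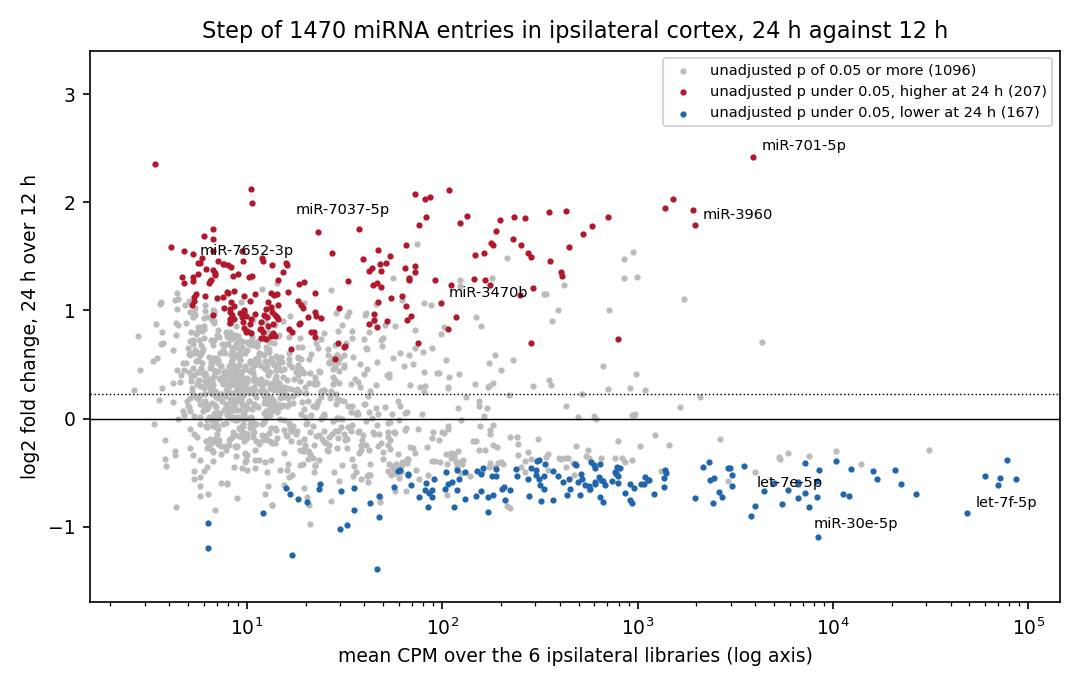
Log2 fold change of 24 h over 12 h (vertical) against the mean level in CPM over the 6 ipsilateral libraries (log axis) for 1470 entries, with entries at an unadjusted p under 0.05 in red (207, higher at 24 h) and blue (167, lower at 24 h). The dotted line is the median of 0.23; most entries over 1000 CPM lie below 0, while miR-701-5p and miR-3960 stand out above 0 at a high level.

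The let-7 family and miR-98 were lower in value at 24 h as a group. All 10 tested members of the list had an unadjusted p under 0.05 with a negative step, where 11.4% of all entries did. The smallest adjusted p was 0.0571. All members but miR-98-5p had a mean over 1000 CPM, a level at which 54 of 78 entries were lower at this p (median step -0.54). The shares of all entries given below include many low entries, whose steps were higher. For the 10 members the median log2 fold change was -0.72, and it was -0.26 with library totals, so the sign held on both scales. DESeq2 called all 10 lower, for let-7e-5p with an adjusted p of 0.00583, where it called 10.8% of all entries lower. On the TMM scale every 24 h library lay below every 12 h library in 9 of the 10, as in 76 of all 1470 entries (5.17%). All 10 were lower on each of the 3 surgery days on that scale, which held for 226 of all entries (15.4%). The TMM medians within days 1, 2 and 3 were -0.88, -0.88 and -0.36, and the median of the contralateral step was -0.20. With library totals the groups of let-7a-5p and miR-98-5p stayed apart. Those of let-7e-5p then overlapped, with 4949, 5500 and 4800 CPM at 24 h, against 8596, 5488 and 5701 CPM at 12 h. The direction by day also failed for some members with library totals, such as let-7d-5p on day 3 (4225 CPM at 24 h, against 3875 CPM at 12 h). let-7k, also on the list, was not analysed here.

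let-7e-5p had 3453, 4670 and 3851 CPM at 24 h on surgery days 1, 2 and 3, against 7563, 8114 and 5273 CPM at 12 h. The step was -0.79 ± 0.18 on the log2 scale (SE, as for all steps below), and edgeR gave an adjusted p of 0.0571. On the TMM scale the groups did not overlap, and the 12 h library of day 3 was nearest to the 24 h libraries. let-7f-5p, the most abundant member, had 25968, 44265 and 31981 CPM at 24 h, against 61861, 85602 and 42600 CPM at 12 h (-0.88 ± 0.20, edgeR adjusted p = 0.0571). It was lower at 24 h on every day, yet the 24 h library of day 2 lay above the 12 h library of day 3, so the groups overlap. let-7d-5p had 2723, 2572 and 3391 CPM at 24 h, against 5928, 5829 and 3584 CPM at 12 h (-0.81 ± 0.20, edgeR adjusted p = 0.0571), with nearly equal levels at both times on day 3. In sham cortex let-7e-5p was at 6881 ± 1276 CPM and let-7f-5p at 63700 ± 11379 CPM (SD, n = 3 each), within the range of the 12 h libraries.

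Other families had negative medians on the TMM scale. In the miR-30 family 4 of 5 members were lower at an unadjusted p under 0.05, with a median of -0.61 and a smallest adjusted p of 0.0571. miR-30e-5p had 3724, 6424 and 6216 CPM at 24 h, against 7608, 13924 and 7453 CPM at 12 h (-0.82 ± 0.20, edgeR adjusted p = 0.0571). Its groups did not overlap, and the fold change within day 3 was -0.26, the smallest of the 3 days in size. All 4 members of the miR-181 family were lower at an unadjusted p under 0.05 (median -0.57, smallest adjusted p 0.0732), among them miR-181a-5p, the most abundant entry, with 58304, 73812 and 75478 CPM at 24 h, against 89499, 139734 and 80499 CPM at 12 h. DESeq2 called the same numbers of members lower, 4 of 5 and 4 of 4, where it called 10.8% of all entries lower. All members of these families but miR-181d-5p had a mean over 1000 CPM. At that level 54 of 78 entries were lower at an unadjusted p under 0.05, with a median step of -0.54. With library totals the medians of these families were -0.14 and -0.10. Of the miR-29 family 2 of 3 members reached an unadjusted p under 0.05 on the lower side, of the miR-15/16 family 2 of 6, of the miR-23/27/24 clusters 2 of 5 and of the miR-17/92 clusters 4 of 12. Over all entries 11.4% were lower at that p, but 80 of the 238 entries between 100 and 1000 CPM and 54 of the 78 over 1000 CPM were, so these counts are not set apart from entries of such levels. The medians of these 4 lists, between -0.42 and -0.30, turned positive with library totals (0.01 to 0.13). The miR-34 family, p53 targets, had 0 of 6 (median -0.18, and 0.27 with library totals).

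The miRNAs enriched in neurons had negative steps throughout. Of 11 members all were below 0 and 8 had an unadjusted p under 0.05, with a median step of -0.62 (-0.15 with library totals) and a contralateral median of -0.05. DESeq2 called 8 of the 11 lower. Over all entries 11.4% were lower at that p and 10.8% by DESeq2, while of the entries over 1000 CPM 54 of 78 were lower, a share near that of the list. miR-9-5p, a regulator of neural progenitors and neurons, had 15930.3, 25094 and 19284 CPM at 24 h, against 30546, 46781 and 22404 CPM at 12 h (-0.70 ± 0.18, edgeR adjusted p = 0.0609). On day 3 its 2 levels were close, and the 24 h library of day 2 lay above the 12 h library of day 3. miR-124-3p, a neuron-specific miRNA, had 3200, 4291 and 6031 CPM at 24 h, against 3405, 8346 and 6327 CPM at 12 h. Its groups overlapped, and its log2 fold change of -0.35 ± 0.19 (edgeR adjusted p = 0.22) changed sign to 0.09 with library totals. All 4 arms of the miR-132 and miR-212 hairpins, whose transcription follows neuronal activity through CREB, were lower at an unadjusted p under 0.05 (median -0.58, and -0.12 with library totals), and DESeq2 called all 4. Of these miR-132-5p had 478, 641 and 991 CPM at 24 h, against 997, 1579 and 962 CPM at 12 h (-0.78 ± 0.20, edgeR adjusted p = 0.0571), lower at 24 h on days 1 and 2 and nearly equal on day 3.

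**Figure D2:**
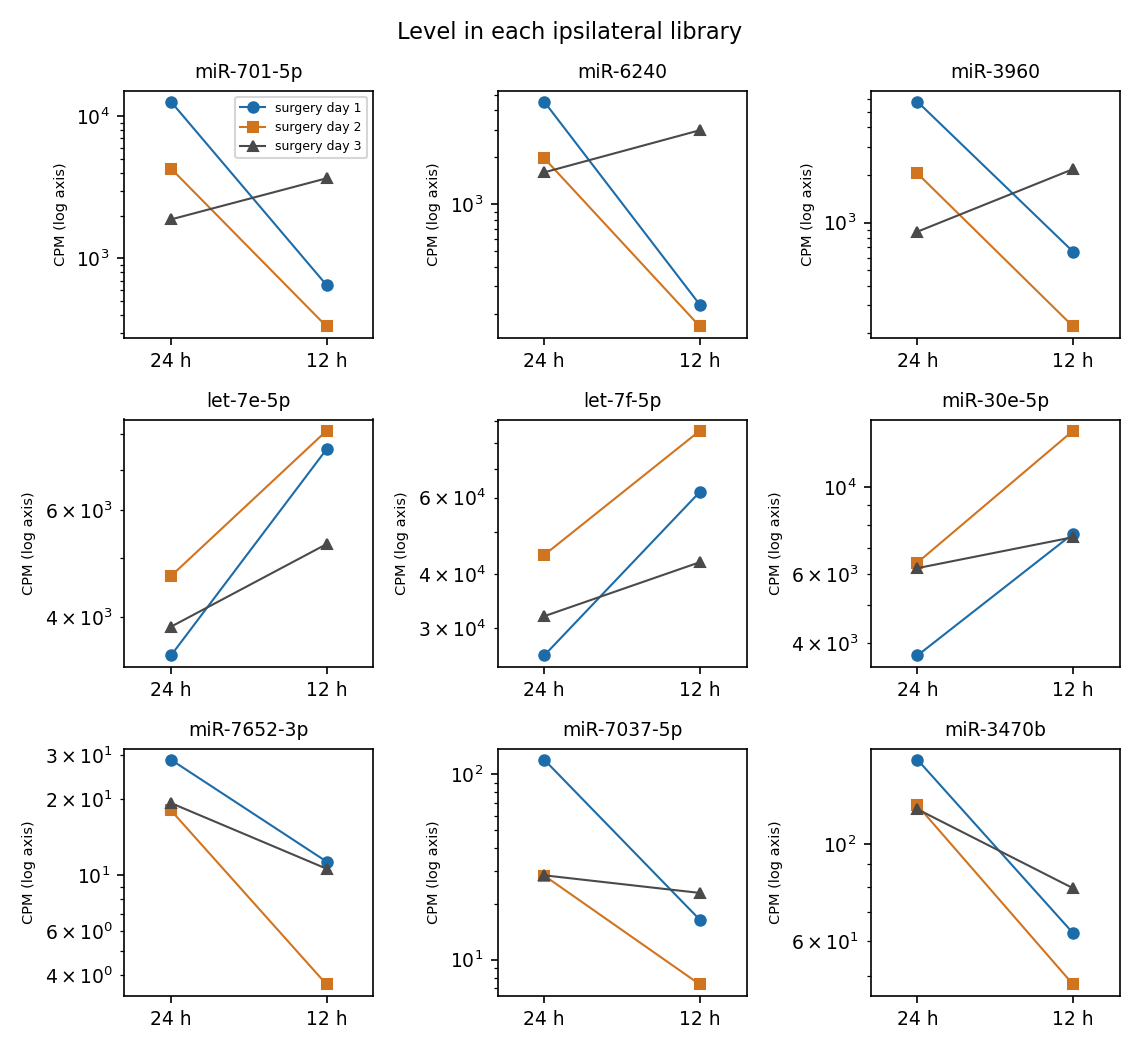
Levels of 9 miRNAs in CPM (log axis, scaled per panel) in the 24 h libraries (left) and the 12 h libraries (right) of each panel, with a line joining the libraries of 1 surgery day. let-7e-5p, let-7f-5p and miR-30e-5p were lower at 24 h on all 3 days and miR-7652-3p, miR-7037-5p and miR-3470b were higher, while miR-701-5p, miR-6240 and miR-3960 were higher at 24 h on days 1 and 2 and lower on day 3.

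The remaining entries that the naming rule takes from the lower side were miR-222-3p, miR-6481, miR-351-5p, miR-383-5p, let-7a-5p and let-7g-5p. miR-222-3p, which targets the cell cycle inhibitor Cdkn1b, had 1728, 3284 and 2828 CPM at 24 h, against 4554, 7586 and 2841 CPM at 12 h (-0.90 ± 0.23, edgeR adjusted p = 0.0571). The libraries of day 3 were alike, and the 12 h level was the higher one on days 1 and 2. miR-6481 had 21.8, 29.1 and 23.1 CPM at 24 h, against 40.1, 121 and 42.3 CPM at 12 h (-1.39 ± 0.37, edgeR adjusted p = 0.0625), without overlap. Its letters also occur in mt-Tf, the mitochondrial tRNA for phenylalanine, and its contralateral step was -0.99 ± 0.36, so the lower value at 24 h was seen in both hemispheres (difference of the steps -0.41 ± 0.51). miR-383-5p had nearly equal levels in the 24 h libraries, with 859, 853 and 840 CPM at 24 h, against 1292, 1579 and 1022 CPM at 12 h (-0.60 ± 0.16, edgeR adjusted p = 0.064).

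On the higher side the 12 entries with the smallest p and at least 10 CPM were miR-7652-3p, miR-7037-5p, miR-3470b, miR-7063-5p, miR-7069-5p, miR-7056-5p, miR-7048-5p, miR-7026-3p, miR-1931, miR-6958-3p, miR-6998-3p and miR-804. Their means were between 10.2 and 98.2 CPM and their edgeR adjusted p ran from 0.0571 to 0.064. With library totals edgeR called all 12 higher, and DESeq2 called 7 of them higher. In 10 of the 12 every 24 h library lay above every 12 h library, which was so for 124 of all 1470 entries (8.44%). The 12 were chosen by p and level in these same libraries, so their count follows from the choice and is a description. The same direction on all 3 days, higher at 24 h, was seen in 247 of all entries (16.8%). In the contralateral step, where nothing was called, 179 entries were higher (12.2%) and 146 lower (9.93%) on all 3 days.

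miR-3470b had 156, 123 and 120.4 CPM at 24 h, against 62.7, 47.8 and 79.4 CPM at 12 h (1.07 ± 0.26, edgeR adjusted p = 0.0571). All 3 libraries of 24 h stood above those of 12 h, and sham cortex was at 79.3 ± 12.5 CPM (SD, n = 3). miR-7652-3p had 28.7, 18.0 and 19.3 CPM at 24 h, against 11.3, 3.68 and 10.6 CPM at 12 h (1.35 ± 0.29, edgeR adjusted p = 0.0571). Its contralateral step was 0.83 ± 0.32 and the difference of the steps 0.52 ± 0.44, so the opposite cortex lay on the same side of 0. miR-7037-5p had 120.1, 28.4 and 28.6 CPM at 24 h, against 16.4, 7.36 and 22.9 CPM at 12 h (1.76 ± 0.41, edgeR adjusted p = 0.0571). The 24 h library of day 1 alone was far above the rest, and without it the log2 fold change was 0.89. Its contralateral step was 0.16 ± 0.47.

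The entries with the smallest p in the difference between the hemispheres' steps were miR-1931, miR-7026-3p, miR-691, miR-6982-5p, miR-6959-3p and miR-5626-3p, all with an edgeR adjusted p of 0.66. miR-1931 had 24.6, 17.3 and 11.6 CPM at 24 h, against 5.14, 4.9 and 7.94 CPM at 12 h in ipsilateral cortex, while its contralateral means were 5.36 CPM at 24 h and 9.57 CPM at 12 h. The difference of the steps was 2.31 ± 0.60 on the log2 scale. Its 24 h ipsilateral libraries were all above sham cortex, which was at 5.83 ± 1.58 CPM (SD, n = 3). miR-7026-3p had 18.4, 18.0 and 17.0 CPM at 24 h, against 5.14, 4.9 and 8.82 CPM at 12 h, and sham cortex was at 16.2 ± 3.98 CPM (SD, n = 3). On the TMM scale its 24 h level was therefore that of sham, and the 12 h libraries were the low ones. With library totals its 24 h libraries (26.41, 21.25 and 21.16 CPM) lay above every sham library (17.78, 10.3 and 20.96 CPM). Its 12 h libraries (5.84, 3.32 and 9.54 CPM) stayed below sham on that scale.

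The largest fold changes belonged to entries on which the surgery days disagreed. miR-701-5p had 12600.2, 4279.8 and 1881 CPM at 24 h on days 1, 2 and 3, against 650.2, 333 and 3656 CPM at 12 h. On days 1 and 2 the 24 h level was far above the 12 h level (4.27 and 3.68 on the log2 scale), while on day 3 it was below it (-0.96). The fit over the 3 days gave 2.42 ± 0.76 (edgeR adjusted p = 0.0783), and without all libraries of day 3 it gave 4.07 with an edgeR adjusted p of 6.79e-05. In sham cortex this miRNA was at 18.1 ± 4.72 CPM (SD, n = 3), and its lowest ipsilateral library of 12 and 24 h was at 333 CPM. It was between 47.5 and 66.2 CPM at 3 h and between 62.7 and 327 CPM at 6 h in ipsilateral cortex, where day 3 was again the highest at 6 h.

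miR-6240 had 4540.2, 1975 and 1604 CPM at 24 h, against 228, 165 and 2984 CPM at 12 h (1.92 ± 0.73, edgeR adjusted p = 0.13). miR-3960 had 5793, 2041 and 876 CPM at 24 h, against 654, 221 and 2175 CPM at 12 h (1.79 ± 0.63, edgeR adjusted p = 0.11). In both the 12 h library of day 3 lay at the level of the 24 h libraries, and the groups overlap. miR-718, with 3955, 2199 and 561 CPM at 24 h, against 247, 185 and 1913 CPM at 12 h, showed the same order. Of 19 late-rising entries named in earlier work on these same counts, 11 were higher at an unadjusted p under 0.05, edgeR called 0 and DESeq2 called 8 higher. Their median step was 1.61, with medians of 3.34, 3.20 and -1.45 on days 1, 2 and 3. Of 12 late-falling entries named in the same work, all 12 were lower at an unadjusted p under 0.05, edgeR called 0 and DESeq2 called 12 lower. Their median step was -0.75, with -1.09, -1.14 and -0.05 on days 1, 2 and 3. Both lists were chosen on these libraries, so their direction is no independent evidence.

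The disagreement between days was not limited to these entries, although 247 entries were higher and 226 lower on all 3 days. Over the 996 entries of at least 10 CPM the steps of days 1 and 2 had a Pearson correlation of 0.76, while those of day 3 had correlations of -0.59 with day 1 and -0.44 with day 2. The points share the 6 libraries and their scaling factors, and these values are a description. Of the 142 such entries with a log2 step over 2 on day 1, all 142 were above 0 on day 2, with a median of 2.39, and 5 were above 0 on day 3, with a median of -1.17. Both day 1 and day 2 exceeded 2 in 90 entries, 63.4% of the day 1 list and 79.6% of the day 2 list, and of these 0 were above 0 on day 3 (median -1.24). On the lower side, with another threshold, 129 entries of at least 100 CPM had a step under -0.5 on day 1, of which 7 were above 0 on day 2 and 47 on day 3. Chosen on day 3 in that way there were 80 entries, of which 77 were above 0 on day 1 and 67 on day 2.

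**Figure D3:**
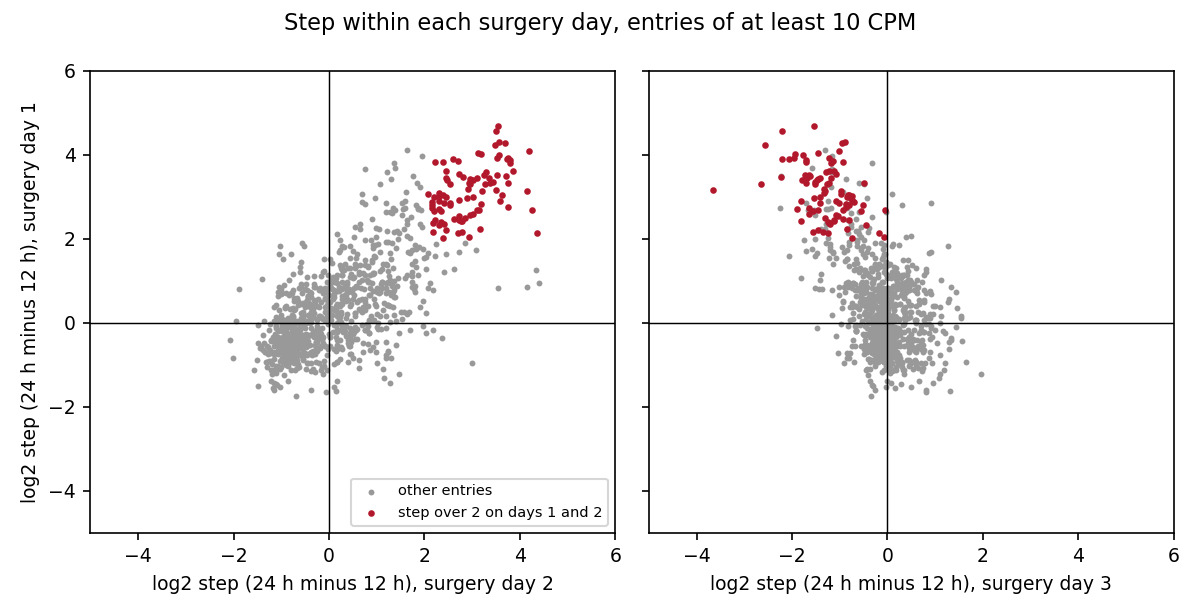
Log2 step (24 h minus 12 h) on surgery day 1 (vertical) against that on day 2 (left) and on day 3 (right) for 996 entries of at least 10 CPM, with the 90 entries over 2 on days 1 and 2 in red. The red points, chosen on days 1 and 2, all lie below 0 on day 3.

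The 90 entries were summed in every library to see where the days part. They took 11.2%, 3.67% and 1.88% of the counts at 24 h on days 1, 2 and 3, against 0.872%, 0.237% and 3.93% at 12 h. The choice of the entries fixes the low 12 h and high 24 h shares of days 1 and 2, so the shares are a description. The choice did not use the step of day 3, but its libraries entered through the mean of at least 10 CPM. On that day the 12 h library held more of the 90 entries than the 24 h library. In sham cortex they took between 0.112% and 0.217%, and in contralateral cortex at 12 and 24 h between 0.119% and 0.199%. In ipsilateral cortex at 3 and 6 h the shares were between 0.248% and 0.978%. All 6 ipsilateral libraries of 12 and 24 h were above every sham library and every contralateral library of those times. The 12 h library of day 2 (0.237%) was close to the highest sham library (0.217%). Since the entries were chosen on these 6 libraries, this comparison too is a description. No source used here says why the 12 h and 24 h ipsilateral libraries of day 3 departed from this pattern, and the cause was not tested.

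**Figure D4:**
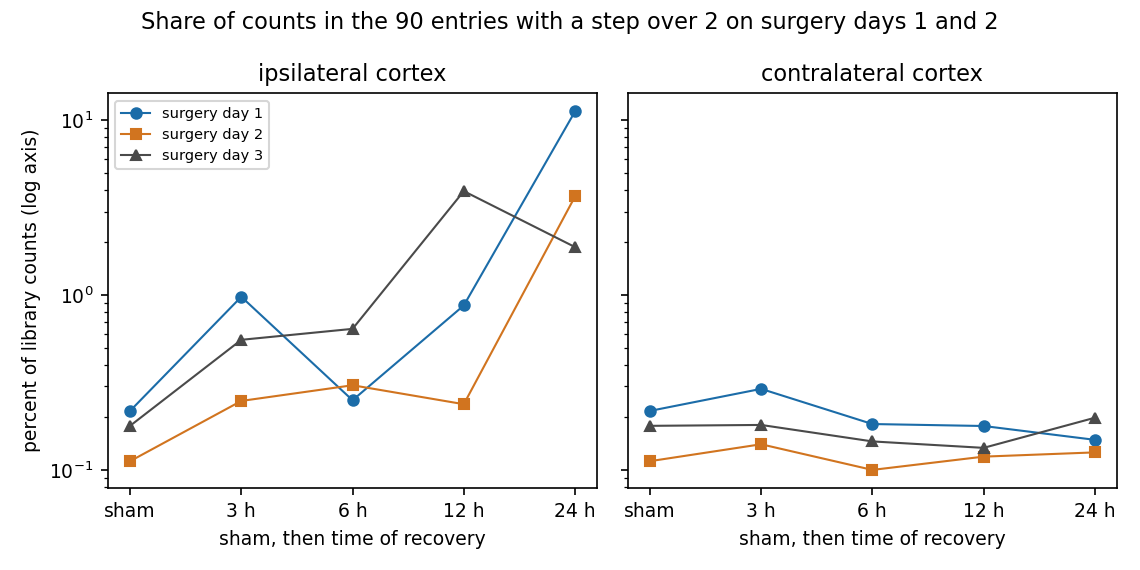
Share of library counts (percent, log axis) taken by the 90 entries in sham cortex and at 3, 6, 12 and 24 h, in ipsilateral (left) and contralateral cortex (right); the same 3 sham libraries are drawn in both panels and lines join libraries of 1 surgery day. On days 1 and 2 the highest ipsilateral share is at 24 h (11.2% and 3.67%), on day 3 at 12 h (3.93%), and the highest contralateral share is 0.291%.

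The 90 entries also differed in base composition, which did not enter their choice. Of the 79 with a matched sequence the median GC content was 63.6%, against 52.2% in the 1211 other matched entries, and 45.6% against 12.1% had a GC content over 65%. Over all matched entries, the 183 with over 65% GC had a median step of 0.53, and the other 4 GC classes lay between -0.20 and 0.31. On days 1, 2 and 3 the median of the 183 was 1.07, 0.96 and -0.38, and it was -0.04 in contralateral cortex. Among matched entries of at least 100 CPM, the 51 with over 65% GC had a median step of 1.11. Their median was 2.48, 1.83 and -0.77 on days 1, 2 and 3 and -0.14 in contralateral cortex. That level is a mean over these same 6 libraries, so entries can pass it through high 24 h values. In the other 4 GC classes at that level the median lay between -0.60 and -0.36. The sequences of miR-2861, miR-5131 and miR-8109 above are examples, while miR-701-5p has 42.86% GC and the same pattern. Since miR-718, miR-2861 and miR-5131 lie over exons of other genes, whether such counts are mature miRNAs or other short fragments cannot be told from the table.

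Leaving out libraries showed how far the test rests on day 3. Without the 24 h library of day 3, edgeR called 165 entries higher and 72 lower, and without the 12 h library of day 3 it called 210 higher and 118 lower, while 0 were called without any of the other 4 libraries. Without all libraries of day 3, an alternative chosen after seeing the data, 254 entries were called higher and 123 lower, and the difference between the hemispheres' steps was called above 0 in 138 and below 0 in 24. Without day 1 or without day 2 there were 0 calls. In the fit without day 3, the step of let-7f-5p was -1.07 (edgeR adjusted p = 0.00225), that of miR-30e-5p -1.08 (edgeR adjusted p = 0.00108) and that of miR-3470b 1.34 (edgeR adjusted p = 0.00147).

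Markers of the processes and cell types that enter or leave the tissue after a stroke had no calls by edgeR on the TMM scale. miR-210-3p, the miRNA induced by hypoxia through HIF, had 37.5, 53.4 and 43.2 CPM at 24 h, against 62.7, 84.6 and 47.6 CPM at 12 h (-0.52 ± 0.27, edgeR adjusted p = 0.22). Its sham level was 56.8 ± 10.8 CPM (SD, n = 3), which lies between the means of the 2 times. miR-21a-5p, induced in many injured tissues, had 2859, 2523 and 1349.6 CPM at 24 h, against 1767, 2344 and 1696 CPM at 12 h. It was higher at 24 h on days 1 and 2 and lower on day 3 (0.20 ± 0.21, edgeR adjusted p = 0.58), and without the 24 h library of day 1 the sign turned (-0.09). With library totals its step was 0.64 and edgeR called it higher (adjusted p = 0.0406). miR-223-3p, carried by neutrophils and other myeloid cells, had 15.0, 9.71 and 5.4 CPM at 24 h, against 6.16, 17.2 and 15.9 CPM at 12 h. Its groups overlapped (-0.39 ± 0.38, edgeR adjusted p = 0.55), the sign changed to 0.05 with library totals, and its level rested on 7 to 22 counts at 24 h and 6 to 18 at 12 h.

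Of the 9 inflammation and injury miRNAs 3 were lower at an unadjusted p under 0.05 and 0 higher (median -0.24, and 0.20 with library totals). Of 8 leukocyte and microglia markers 7 were tested, with 5 steps below 0 and 2 above 0, and none reached that level in either direction. The marker not tested, miR-142a-3p, had 10, 8 and 4 counts at 24 h, against 1, 3 and 2 counts at 12 h and 7, 2 and 10 in sham. The summed level of the 7 was 1278 to 1963 CPM at 24 h and 1648 to 2914 CPM at 12 h, against 2109 to 2403 CPM in sham. No marker of the list was at 0 in any of the 6 libraries. Erythrocyte markers (1 of 3 lower) summed to 139 to 195 CPM at 24 h and 196 to 260 CPM at 12 h, vascular markers (1 of 4 lower) to 9468 to 16832 CPM at 24 h and 13125 to 24710 CPM at 12 h, and oligodendrocyte markers (2 of 3 lower) to 1024 to 1871 CPM at 24 h and 1547 to 3006 CPM at 12 h. Choroid plexus markers (1 of 3 lower) summed to 2242 to 2817 CPM at 24 h and 3001 to 3794 CPM at 12 h. Meninges and fibroblast markers (0 of 5) summed to 283 to 408 CPM at 24 h and 270 to 554 CPM at 12 h, and muscle markers (0 of 1 tested) to 79.2 to 115 CPM at 24 h and 103 to 159 CPM at 12 h, with miR-1a-3p at 0 in the 24 h library of day 1. Epithelial miRNAs, from the clusters of miR-200 and miR-183 (0 of 6), summed to 566 to 956 CPM at 24 h and 452 to 755 CPM at 12 h. In the 12 h library of day 1 miR-96-5p was at 0. All these sums are on the TMM scale. With library totals the 24 h and 12 h levels overlapped in all 3 erythrocyte and all 3 choroid plexus markers. On that scale miR-451a had 137, 91.5 and 135 CPM at 24 h, against 95.7, 107 and 154 CPM at 12 h. For miR-204-5p the levels were 3907, 2826 and 2760 CPM at 24 h, against 3780, 2547 and 3168 CPM at 12 h. The lower sums of both lists at 24 h therefore cannot be separated from the choice of scale. The same holds for the leukocyte and microglia sums against sham. With library totals the 24 h and sham levels of the tested markers of that list overlapped, except for miR-155-5p. That miRNA then had 26.4, 11.4 and 14.4 CPM at 24 h, against 6.22, 5.15 and 6.29 CPM in sham. Over all entries 11.4% were lower at an unadjusted p under 0.05. The shares were 80 of 238 between 100 and 1000 CPM and 54 of 78 over 1000 CPM. Counts this small do not set these lists apart from such shares. DESeq2 called 3 inflammation, 1 vascular and 1 oligodendrocyte marker lower and 0 in the other lists of this paragraph, against 10.8% of all entries. Their part in the steps described above was not tested.

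The imprinted chr12 locus, a large source of brain miRNAs, had negative medians on the TMM scale. Of 15 miRNAs of the Rtl1-antisense and Meg3 region 6 were lower at an unadjusted p under 0.05 (median -0.38), and of 28 of the Mirg cluster 9 were lower and 1 higher (median -0.38). DESeq2 called 7 of the 15 and 9 of the 28 lower. Over all entries 11.4% were lower at that p and 10.8% by DESeq2, and of the entries between 100 and 1000 CPM 80 of 238 were lower at that p, a share near that of the Mirg cluster. With library totals both medians turned positive, at 0.06 and 0.05. miR-127-3p, which is antisense to Rtl1 and directs its cleavage, had 44874, 81829 and 73032 CPM at 24 h, against 57686, 124176 and 82668 CPM at 12 h (-0.38 ± 0.16, edgeR adjusted p = 0.15, and 0.06 with library totals). The exception on the higher side was miR-494-3p, with 542, 243 and 50.9 CPM at 24 h, against 32.9, 25.7 and 198 CPM at 12 h. It followed the day-dependent pattern of miR-701-5p and had a sham level of 8.91 ± 2.43 CPM (SD, n = 3).

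**Figure D5:**
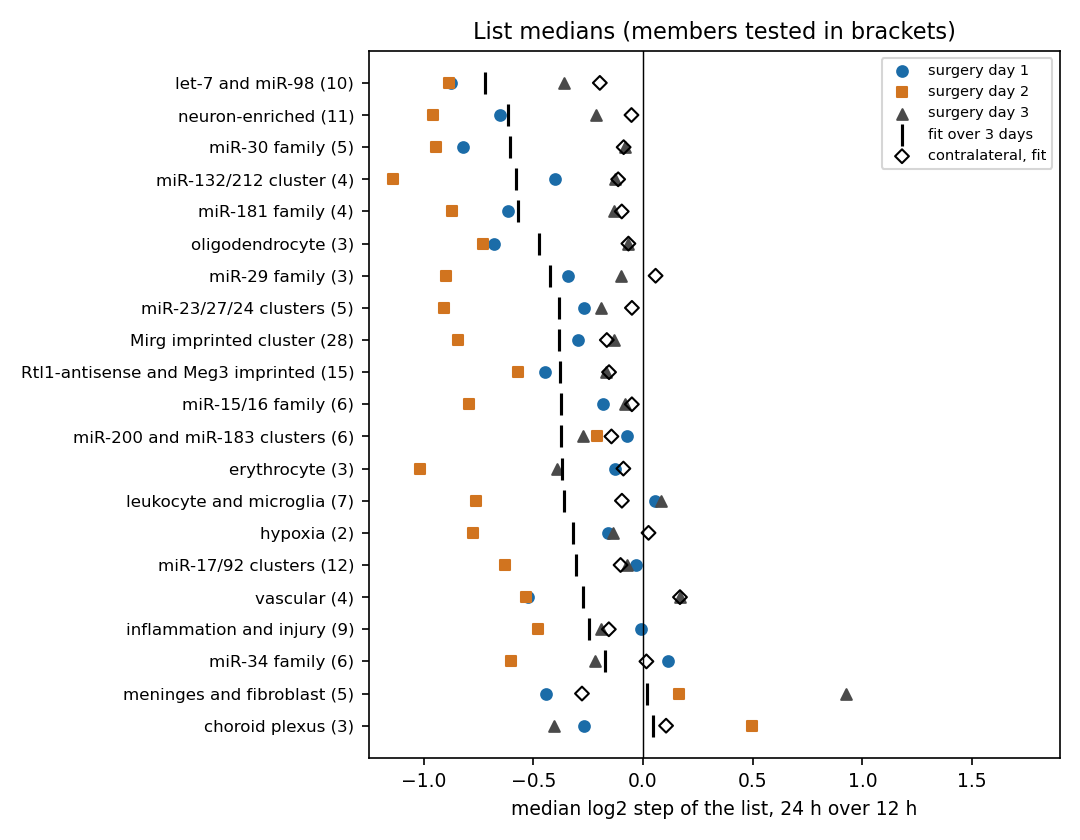
Median log2 step (24 h over 12 h) of each of the 21 family, marker and cluster lists with more than 1 tested member (the late-rising and late-falling lists are not drawn) in ipsilateral cortex on surgery days 1, 2 and 3, in the fit over the 3 days (vertical bar) and in contralateral cortex (open diamond). On day 2 the medians of 19 of these 21 lists are below 0, and of them those of let-7 and miR-98 (-0.72), neuron-enriched (-0.62) and miR-30 (-0.61) are lowest in the fit; with library totals the medians of let-7, miR-30, miR-181, miR-132, neuron-enriched and oligodendrocyte lists stayed below 0 and the others did not.

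Entries were also grouped by shared seed, without the lists. Of 13 seeds shared by at least 4 matched entries, 8 had a median step below 0 and 5 above 0. The GAGGUAG seed of let-7 and miR-98 (9 entries) was the lowest, with a median of -0.71 on the TMM scale. It was followed by GUAAACA (-0.67), which held miR-30a-5p, miR-30c-5p, miR-30e-5p and miR-384-5p. Next were AGUGCAA (-0.58), with miR-130a-3p, miR-130b-3p, miR-301a-3p and miR-6389, and ACAUUCA of miR-181 (-0.57). On day 3 these 4 medians were -0.40, -0.20, -0.31 and -0.13.

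The share of all counts in the 10 most abundant entries was 46.8%, 55.4% and 54.3% at 24 h, against 55.2%, 59.0% and 54.5% at 12 h. The mean was 52.1% ± 4.67 at 24 h and 56.2% ± 2.46 at 12 h (SD, n = 3 each), and the difference of -4.09 percentage points was within the spread between libraries (exact permutation test, two-sided, p = 0.3, where 3 against 3 cannot go below 0.1). The test does not use the surgery days, within each of which the share was lower at 24 h, on day 3 by the least. The 24 h library of day 1 was the low one, and without it the difference was -1.41 points.

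The 2 arms of a hairpin often differed in their step. Of 170 hairpins whose more abundant arm had at least 100 CPM, the less abundant arm had the higher step in 106 (62.4%). The median step was -0.41 for the more abundant arm and -0.06 for the less abundant arm. In 46 hairpins the main arm was below 0 and the other above 0. Low entries as a class had higher steps, as given above, so abundance and arm move together here.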

How the data were processed

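The deposited data are raw counts, made by the authors, for 1842 mature miRNAs in each of 27 libraries. Per the labels' protocols, Trizol RNA was made into TruSeq small RNA libraries with inserts of 15 to 35 bp and read as 69 bp single ends on a MiSeq. The submitters' processing notes list Novoalign and edgeR but neither role nor version. Build, miRNA annotation and the handling of multi-mapping reads: not given in the sources used here. No mature sequences or coordinates are in the table.

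Counts were analysed with edgeR 4.0.16 and limma 3.58.1 in R 4.3.3: TMM factors, the filterByExpr filter (1470 entries kept, 99.9% of counts, 372 removed), and robust quasi-likelihood F tests in 1 model of all 27 libraries in 9 groups with the replicate number as a block (16 residual degrees of freedom, common dispersion 0.0817). The 3 contrasts were the ipsilateral step, the contralateral step and their difference. Steps within a surgery day are differences of log2(CPM + 1). DESeq2 1.42.0 was an alternative. The test was first tried on simulated counts. The design text gives each set of replicates its own day of surgery, which is where the pairing comes from. The correlation of deviations from the group mean averaged 0.22 in the 108 pairs of libraries with the same number and -0.11 in those with different numbers, but at 0.08, 0.25 and -0.49 between the 24 h and 12 h ipsilateral libraries of numbers 1, 2 and 3. No replicates agreed within sampling noise (smallest chi-square per degree of freedom 20.0). Depth ranged from 856591 to 1903416 counts per library.

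The named entries are the 12 with the smallest p in each direction at a mean of at least 10 CPM (filling in for edgeR calls, of which there were none), the 6 with the smallest p in the difference of the steps, the 10 most abundant, members of 24 lists, and the other arms of these. The members and lists were chosen with earlier results of these data known. miR-718, miR-2861 and other examples of the day-dependent pattern were on a list named after such results. Entries that share nearly identical sequences can share reads.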

Additional observations from a re-analysis of the deposited data

How the results depend on the processing

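The block for surgery day is a paired analysis, and with no replicate block edgeR also called 0 entries higher and 0 lower (smallest adjusted p 0.157). Calls were 0 as well with DESeq2 size factors (smallest adjusted p 0.0504), without a filter, with a filter of 10 CPM in 3 libraries, and in the 6 ipsilateral libraries alone (smallest adjusted p 0.69). Counts of calls moved in other settings: 74 higher with library totals, 71 higher with TMM factors from abundant entries, and 41 higher and 159 lower with DESeq2. Leaving out single libraries or all libraries of 1 surgery day (the second chosen after seeing the data) gave 0 to 254 higher and 0 to 123 lower, and for the difference of the steps 0 to 138 above 0 and 0 to 24 below 0. The high ends are those without day 3; of single libraries, leaving out the 12 h library of day 3 gave 210 and 118 and that of 24 h 165 and 72. The cause was not tested. The contralateral step had 0 calls in every setting. The difference in the share of the 10 most abundant entries ranged from -5.70 to -1.41 points without single libraries. Signs in each setting were checked for 54 single entries described here, not for all entries tested. None of those that turned was called on the TMM scale with the block. With library totals they were miR-127-3p (0.0632), miR-434-3p (0.18), miR-124-3p (0.0859) and miR-223-3p (0.0543). With TMM factors from abundant entries the same 4 turned (0.0594, 0.16, 0.0845 and 0.0636). As given above, the median of abundant entries as a class and those of several lists also turned positive with library totals. Without single libraries or whole days miR-434-3p ranged from -0.71 (without day 3) to 0.14 (without day 1), miR-21a-5p from -0.0862 (without the 24 h library of day 1) to 0.42 (without that of day 3) and miR-223-3p from -1.09 (without day 1) to 0.14 (without day 3). Entries under 10 CPM rest on few counts per library, and differences of their size may not be detectable at this depth.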

Other observations

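A few entries named by the rule for their level were not described above. miR-26a-5p, a broadly expressed miRNA hosted in introns of the Ctdsp genes, had 41232 to 66878 CPM at 24 h and 51975 to 130935 CPM at 12 h. miR-22-3p had a log2 fold change of -0.53 ± 0.16 and miR-128-3p, hosted by R3hdm1 and Arpp21, of -0.62 ± 0.19, with edgeR adjusted p-values of 0.0736 and 0.0781. miR-434-3p, at the imprinted chr12 locus, had 26748, 26279.5 and 29154 CPM at 24 h, against 52087, 35872 and 17008 CPM at 12 h, and was the one of the 10 most abundant entries with a clear opposite sign on day 3 (0.78).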
